A study of Caenorhabditis elegans with 8 samples.

Results

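Genes for the nuclear pore, for transport through it and for the lamina beneath the nuclear envelope were examined in intestines dissected from fed and fasted adults of the nematode Caenorhabditis elegans. They were chosen by gene symbol: every npp gene (nucleoporins), every ima, imb, xpo and ran gene (importins, exportins and the Ran system), and lmn-1, emr-1, lem-2, baf-1, unc-84 and anc-1. This gave 46 of the 20392 genes in the table, of which 26 are pore genes, 14 transport genes and 6 lamina and envelope genes. The study compared 4 fed with 4 fasted libraries of wild-type N2 (Bristol) animals. Fed intestines came from day 1 adults raised on bacterial plates and washed in M9 buffer just before dissection. Fasted intestines came from such adults kept for 12 h in M9 buffer, so that fasting, liquid and the added hours of age cannot be told apart. No transgene, mutation or drug separated the groups according to the design text and genotype labels. The growth label mentions larvae and auxin plates, which the study's methods give for other experiments.

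Nuclear pores are large ring-shaped assemblies that span the nuclear envelope. Scaffold nucleoporins (the Y complex and the inner ring) hold the ring in place, and nucleoporins rich in phenylalanine-glycine repeats (FG) fill its channel. Importins and exportins carry cargo through that channel, and the small GTPase Ran, kept in its GTP form inside the nucleus and in its GDP form outside, sets the direction of transport. The nuclear lamina is a filament network under the inner membrane to which LEM-domain proteins and the chromatin-binding protein BAF attach. SUN and KASH proteins join the envelope to the cytoskeleton. Adult intestinal cells of the worm no longer divide, so that pore and lamina genes serve standing nuclei there.

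Levels are given as RPM, a gene’s counts scaled to a library of 1000000 counts. Totals ranged from 20964161 to 26372847 in fed and from 25310202 to 33846215 in fasted libraries, so that 3 counts correspond to 0.0886 to 0.143 RPM. In these tissue libraries, less RNA per cell cannot be told from fewer cells of a type. The 12 intestine markers summed to 11851 to 12860 RPM among fed and 7961 to 8357 in fasted libraries with 3 called higher and 6 lower, and none was at 0 throughout. The 18 germline and oocyte markers together gave 1.90 to 8.33 RPM in fed libraries but 122, 487, 32.4 and 38.2 in fasted libraries 1 to 4, with 7 tested and 4 called higher. For 11 markers of body wall muscle the sum was 9.86 to 13.7 RPM in the fed group and 937, 61.6, 23.5 and 1339 RPM in the fasted one (6 of 6 tested called higher). Pharynx markers reached 199, 8.85, 9.99 and 374 RPM against at most 2.16 in fed libraries, and neuron markers 63.8, 14.5, 13.9 and 77.9 against at most 10.9 (2 of 2 and 1 of 4 tested called higher). Hypodermis markers overlapped between the groups (11.7 to 80.3 fed, 11.1 to 350 fasted), and sperm markers reached at most 1.87 RPM. Fasted library 2 was thus richest in germline transcripts, and fasted libraries 1 and 4 in muscle, pharynx and neuron transcripts. The part of these cells in the results below was not tested, apart from fits without those libraries.

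With counts scaled by library total, most of the tested pore, transport and lamina genes were higher in fasted intestines, and none was called lower. By edgeR's quasi-likelihood test with library size set to the total count, 31 of the 42 genes that could be tested passed as higher and 0 as lower, where 62.8% of all 7379 tested genes were called, 52.9% higher and 9.97% lower (Benjamini-Hochberg FDR under 0.01 and fold change over 1.5). No member was lower even at an unadjusted p under 0.05. The DESeq2 Wald test, which uses its own scaling, called 19 higher and 2 lower, beside 23.7% and 23.8% of all tested genes. The median log2 fold change was 1.90 for the members and 1.23 for all tested genes, and 34 of 42 members lay above the latter. The counts are relative and the median of all genes was itself above 0, so the fit was also run with TMM factors, which centre the bulk of genes near 0 (median 0.16). Under TMM, 16 members were higher and 2 lower, beside 19.6% and 21.5% of all genes, and the median of the members was 0.82. All 16 were among the 31 called by total counts.

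Pore, transport and envelope genes were also counted apart. Of all tested genes, 52.9% were called higher by total counts and 19.6% under TMM. Of the 24 tested pore genes 18 were called higher (10 under TMM), and their median log2 fold change, 2.17, lay 0.95 above that of all genes. Of the 14 transport genes 10 were called higher (5 under TMM), with a median of 1.80, or 0.57 above. Of the 4 tested lamina and envelope genes 3 were called higher (1 under TMM), with a median of 1.25, or 0.02 above. These medians are descriptions, and no test of one part against another was made. Summed over its genes, the pore went from 41.1 ± 3.49 to 177 ± 21.3 RPM, transport from 60.4 ± 4.30 to 261 ± 28.4 RPM and the lamina and envelope genes from 31.8 ± 2.19 to 106 ± 6.95 RPM (SD, n = 4). Of the last sum, anc-1 alone held a mean of 18.8 RPM in fed and 79.8 RPM in fasted libraries. Together, lmn-1, emr-1, lem-2 and baf-1 went from 10.7 ± 2.39 to 19.5 ± 4.16 RPM (SD, n = 4).

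**Figure D1:**
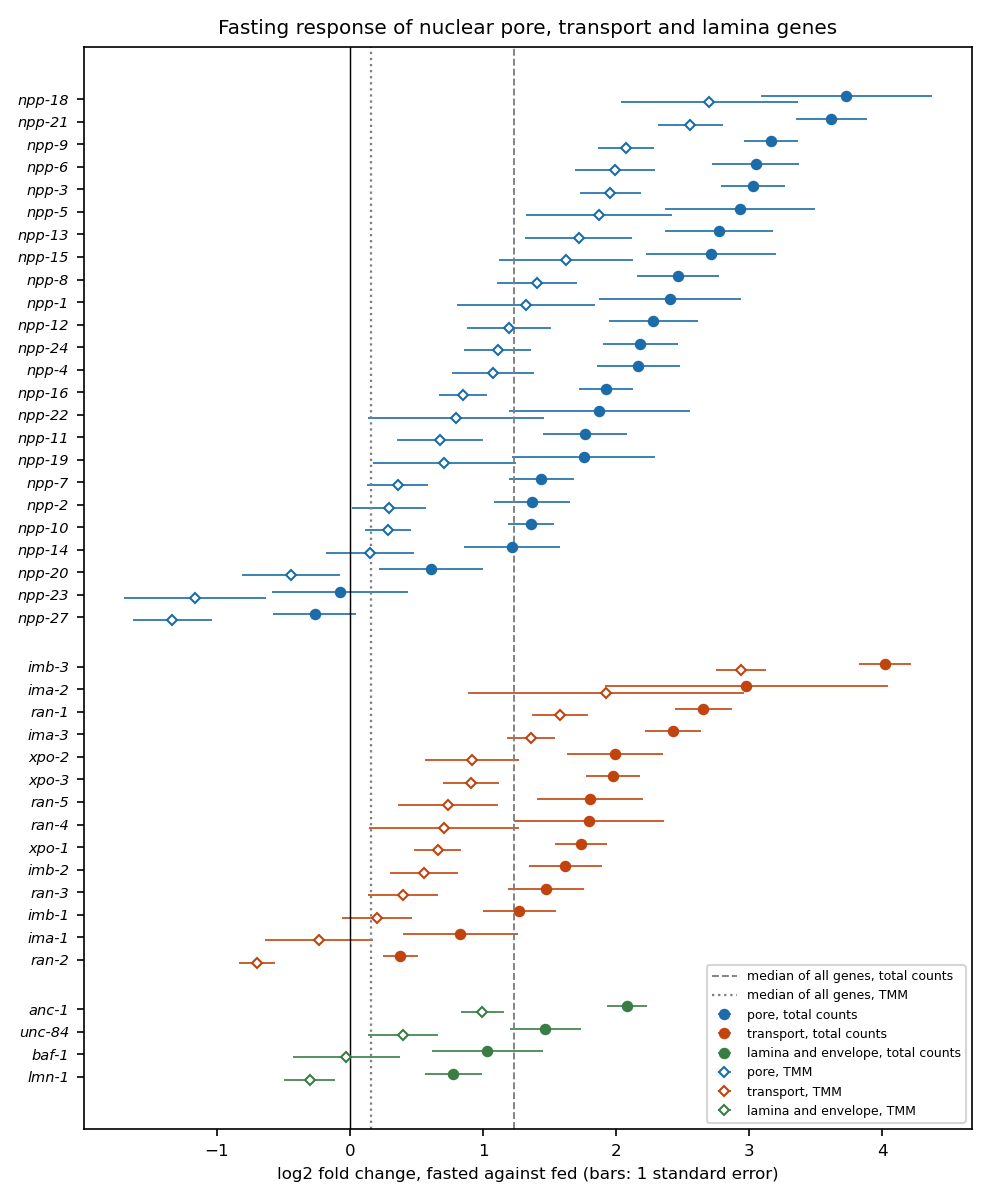
Change on the log2 scale of fasted against fed intestines for the 42 tested genes, by edgeR with total counts (filled circles) and with TMM factors (open diamonds), with bars of 1 standard error. The dashed and dotted lines mark the medians of all tested genes, 1.23 and 0.16. imb-3, npp-18 and npp-21 lie farthest to the right, and npp-27, npp-23 and ran-2 farthest to the left of their groups.

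The filter on low counts let some genes in through one group only. The filter level was 0.379 RPM. Of the 42 tested members 10 reached it in fewer than 4 fed libraries, as did 28.9% of all tested genes. Of those 10, 5 were called higher (npp-5, npp-13, npp-15, npp-18 and ran-5), beside 52.9% of all tested genes of any kind. npp-13 and npp-18 were also called under TMM. These 5 passed the filter through the fasted group, where they were high, so filter and calls rest on the same values. With no filter they were called higher too, at an edgeR FDR of 1.48e-04 (npp-13) to 0.00361 (ran-5). Of the 32 members that reached the filter level in all fed libraries 26 were called higher by total counts and 14 under TMM. Among all 5250 genes of that kind, 50.2% and 16.6% were. The median log2 fold change was 1.84 for these 32 members and 0.89 for these 5250 genes. By location it was 2.17 for 17 pore genes (14 called higher, 8 under TMM), 1.74 for 11 transport genes (9 and 5) and 1.25 for the 4 lamina and envelope genes (3 and 1). With no filter, the median was 1.92 for 45 members and 1.89 for 16629 genes, and 23 members lay above the latter. Relative to all genes, medians there were 0.28 for pore, −0.09 for transport and −0.11 for lamina and envelope genes. In that fit 32 members were called higher, beside 24.4% of all genes.

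The largest increase among all members belonged to an importin. imb-3 (WBGene00002077; chromosome I, 310981 to 314989 in WBcel235, protein-coding) encodes an importin beta family receptor of the importin 5 type, whose relatives in yeast and mammals carry ribosomal proteins and histones into the nucleus. It stood at 5.27, 7.25, 7.64 and 7.92 RPM in the fed libraries and at 142, 117, 101 and 95.8 RPM in the fasted ones. Every fasted library exceeded every fed one by more than 10-fold, and the mean rose 16.2-fold from 7.02 ± 1.2 to 114 ± 20.6 RPM (SD, n = 4). The log2 fold change was 4.02 (SE 0.197, edgeR FDR 7.52e-08), higher than that of 94.3% of all tested genes, and it was 2.94 (SE 0.186, FDR 3.56e-07) under TMM. Within the summed level of the 14 transport genes, imb-3 took 9.42% to 12.9% in fed and 40.0% to 49.0% in fasted libraries. Without imb-3 the other transport genes went from 53.4 ± 3.5 to 147 ± 13.2 RPM (SD, n = 4).

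The other importin beta genes had smaller fold changes. imb-1, which encodes importin beta, the partner of importin alpha, ranged from 1.86 to 3.34 RPM among fed and from 4.24 to 8.12 in fasted libraries. Its log2 fold change of 1.27 (SE 0.272, edgeR FDR 0.00154) was close to the median of all genes and fell to 0.20 under TMM, where it was not called (FDR 0.540). imb-2, the transportin gene, went from 1.06 to 2.41 RPM in fed to 5.13 to 5.97 RPM in fasted libraries (log2 fold change 1.62, SE 0.276, edgeR FDR 3.55e-04). Under TMM the value of imb-2 was 0.56 and was not called (FDR 0.0867), although the groups still did not overlap.

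The 3 importin alpha genes, whose products bind the classical nuclear localization signal, differed in their calls. ima-3 (WBGene00002074; chromosome IV, 7558726 to 7561664), the most abundant of them here, held 5.23, 4.34, 7.80 and 5.95 RPM in fed libraries and 32.1, 37.6, 27 and 28.9 RPM in fasted ones. It rose 5.38-fold (log2 fold change 2.43, SE 0.210, edgeR FDR 3.08e-06, TMM 1.36 with FDR 8.25e-05). ima-1 overlapped between the groups, at 0.429 to 1.74 RPM fed and 1.4 to 3.00 fasted, and was not called (0.83, SE 0.430, edgeR FDR 0.0996). Its direction turned under TMM, to −0.23.

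ima-2, an importin alpha known for its role in the germline and early embryo, had the highest coefficient of variation of the tested members in both groups. It had 0.0759, 0.0954, 0.563 and 0.152 RPM in fed libraries and 0.197, 5.73, 0.466 and 0.827 RPM in fasted libraries 1 to 4. The high value lay in fasted library 2, the library with the highest sum of germline markers (487 RPM), and the other 3 fasted libraries reached into the fed range or just above it. The log2 fold change of 2.98 (SE 1.06) was not called (edgeR FDR 0.0249), dropped to 1.15 without fasted library 2 (FDR 0.208) and was called at 3.76 (FDR 0.00868) without fasted libraries 1 and 4.

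All 3 exportin genes were called higher by total counts, beside 52.9% of all tested genes. xpo-1, which encodes the exportin for leucine-rich nuclear export signals, rose 3.33-fold from 9.11 ± 1.94 to 30.3 ± 4.37 RPM (SD, n = 4). Its fed values were 8.35, 9.49, 11.6 and 7.01 RPM and its fasted values 33.4, 34.7, 25.7 and 27.6 RPM, with no overlap (log2 fold change 1.74, SE 0.192, edgeR FDR 1.76e-05, TMM 0.66 with FDR 0.00859). xpo-3, an exportin of tRNA, rose 3.93-fold (1.97, SE 0.202, edgeR FDR 1.00e-05, TMM 0.91 with FDR 0.00366). xpo-2, the exportin that returns importin alpha to the cytoplasm, went from 0.989 ± 0.454 to 3.96 ± 1.35 RPM (SD, n = 4), with 1.99 as its log2 fold change (SE 0.361, FDR 5.37e-04 by edgeR), and was highest in fasted library 2, at 5.81 RPM. It was not called under TMM (0.92, FDR 0.0473).

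Of the Ran system, the gene for the GTPase was called higher and that for its activating protein was not. ran-1 (WBGene00004302; chromosome III, 10746581 to 10747728), which encodes Ran itself, held 2.20, 3.43, 3.54 and 2.43 RPM among fed and 17.8, 15.9, 17.9 and 21.6 RPM in fasted libraries. The groups lay far apart and the mean rose 6.30-fold (log2 fold change 2.66, SE 0.213, edgeR FDR 1.80e-06, TMM 1.58 with FDR 8.86e-05). In WBcel235, 95 of the 959 exon bases of ran-1 overlap rib-2 on the other strand, whose mean count was 37.5 in fed and 90.5 in fasted libraries.

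ran-2 (WBGene00004303; chromosome III, 7933535 to 7937708), which encodes the GTPase-activating protein RanGAP, was the transport gene with the most reads in fed libraries and changed little. It stood at 22.8, 25.2, 23.2 and 26.3 RPM among fed and 34.7, 33.1, 29.8 and 29.2 RPM in fasted libraries. The fasted values were all higher, by 1.3-fold on average, but the gene was not called (log2 fold change 0.38, SE 0.133, edgeR FDR 0.0230). Relative to all other genes it was low: under TMM every fasted library lay below every fed one, as for 25.2% of tested genes, and the gene was called lower (−0.70, SE 0.136, edgeR FDR 0.00121).

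The remaining Ran genes were scarcer, and ran-4 and ran-5 passed the low-count filter only through the fasted libraries. ran-3, which encodes the nucleotide exchange factor RCC1, rose from 1.41 ± 0.382 to 3.92 ± 0.950 RPM (SD, n = 4), with 1.47 as its log2 fold change (SE 0.285, FDR 8.38e-04 by edgeR), and was not called under TMM (0.40). ran-5 rose from 0.673 ± 0.347 to 2.38 ± 0.502 RPM (1.80, SE 0.396, edgeR FDR 0.00185), missed the threshold without fasted libraries 1 and 4 at a similar fold change (1.66, FDR 0.0209) and was not called under TMM (0.73). ran-4, which encodes NTF2, the importer of Ran, had 17, 10, 2 and 6 counts in fed and 35, 34, 21 and 61 in fasted libraries and was not called (1.80, SE 0.562, edgeR FDR 0.0135).

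**Figure D2:**
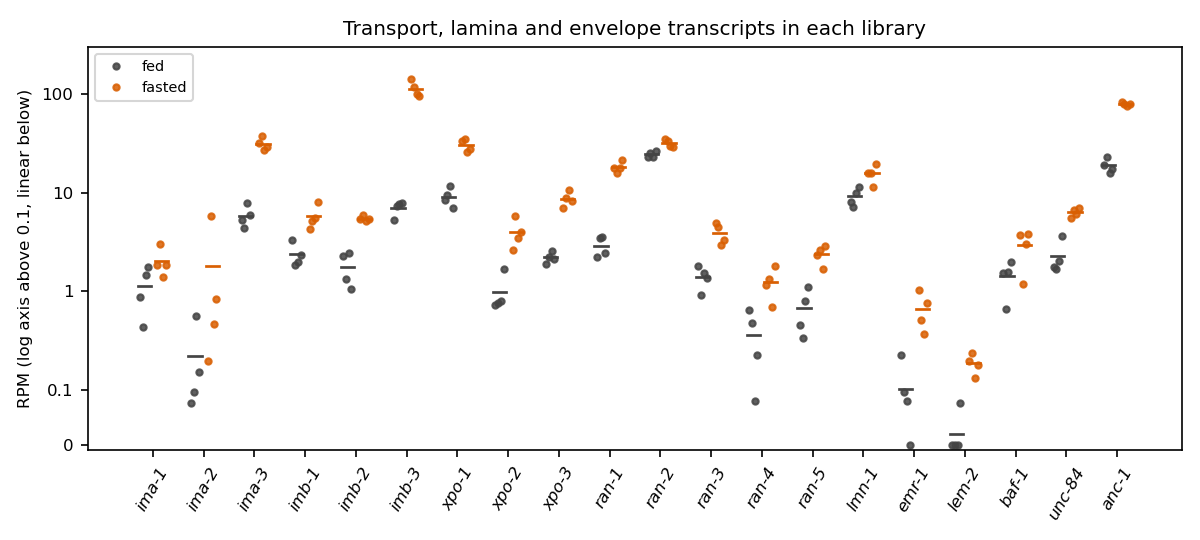
RPM of the 14 transport genes and the 6 lamina and envelope genes in each fed (grey) and fasted (orange) library, on an axis that is logarithmic above 0.1 and linear below, with short lines at the group means. imb-3 rises from 7.02 to 114 RPM on average, ran-2 only from 24.4 to 31.7 RPM, and 1 fasted library of ima-2 stands at 5.73 RPM.

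Among the lamina and envelope genes, the pair of cytoskeletal linkers had a median log2 fold change of 1.78 and the pair of tested lamina and LEM-associated genes one of 0.90. anc-1 (WBGene00000140; chromosome I, 4318033 to 4359092), a giant KASH protein that anchors nuclei, held 19.3, 22.9, 15.9 and 17.3 RPM among fed and 84, 80.2, 75.3 and 79.8 RPM in fasted libraries. The replicates of each group lay close together and the mean rose 4.24-fold (log2 fold change 2.08, SE 0.148, edgeR FDR 8.15e-07, TMM 1.00 with FDR 3.39e-04). unc-84, the SUN protein that recruits ANC-1, ranged from 1.67 to 3.64 RPM among fed and from 5.58 to 6.91 in fasted libraries (1.47, SE 0.268, edgeR FDR 5.62e-04) and was not called under TMM (0.40, FDR 0.220).

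lmn-1 (WBGene00003052; chromosome I, 8763041 to 8765631) encodes the only lamin of the worm. It stood at 8.08, 7.20, 9.82 and 11.5 RPM among fed and 16, 15.8, 11.3 and 19.7 RPM in fasted libraries, so that fasted library 3 fell within the fed range. The increase was 1.71-fold (log2 fold change 0.78, SE 0.214, edgeR FDR 0.00702), below the median of all genes, and turned to −0.30 under TMM (FDR 0.204). The call was also lost when any of fed libraries 1 to 3 or fasted libraries 1, 2 or 4 was left out, although the log2 fold change stayed between 0.65 and 0.81 (FDR 0.0137 to 0.0252). Without fasted libraries 1 and 4 together it was 0.56 (FDR 0.0819).

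baf-1, which encodes the barrier-to-autointegration factor that bridges DNA and LEM-domain proteins, held 1.52, 0.668, 1.57 and 1.97 RPM among fed and 3.74, 1.19, 3.00 and 3.84 RPM in fasted libraries. Fasted library 2 lay inside the fed range, and the gene was not called (1.03, SE 0.416, edgeR FDR 0.0418). Without that library it was called (1.29, FDR 0.00747). Its value under TMM was −0.03.

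emr-1 and lem-2, which encode the LEM-domain proteins emerin and LEM2 of the inner nuclear membrane, were close to the limit of detection and were not tested. emr-1 had 6, 2, 2 and 0 counts in fed and 31, 13, 11 and 26 in fasted libraries, where the means were 0.101 ± 0.0943 and 0.667 ± 0.287 RPM (SD, n = 4). All fasted values were higher by total counts, and the groups overlapped under TMM. lem-2 had 0, 0, 0 and 2 counts in fed and 6, 6, 4 and 6 in fasted libraries, at least 1.52-fold higher than a floor of 3 counts per fed library. A fit with no filter on low counts gave emr-1 an FDR of 0.0307 and lem-2 one of 0.123, and neither was called there. In fits with 1 library left out, emr-1 was called higher without fed library 1 (3.46) and without fasted library 3 (2.87). It was tested but not called without fed library 2, 3 or 4.

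Among pore genes, those of the scaffold included npp-3, npp-6 and npp-18. All 4 tested genes of the inner ring, the layer that lines the channel against the membrane, had log2 fold changes between 1.76 and 3.03. Of the 4, 3 were called higher both by total counts and under TMM, beside 52.9% and 19.6% of all tested genes. npp-3, the Nup205 gene, led this group, with 2.35, 2.0, 2.17 and 1.14 RPM among fed and 13.9, 16.7, 15.6 and 16.4 RPM in fasted libraries (3.03, SE 0.237, edgeR FDR 1.55e-06). npp-8 (Nup155) and npp-13 (Nup93) rose by 2.46 and 2.78 (edgeR FDR 4.07e-05 and 1.23e-04), and npp-19 (Nup35) was not called (1.76, SE 0.537, FDR 0.0121) but passed without fed library 4 (2.42, FDR 0.00349). Both npp-13 and npp-19 passed the low-count filter only through the fasted libraries. As a set the inner ring genes summed to 4.02 ± 0.728 RPM among fed and 26.8 ± 3.70 RPM in fasted libraries (SD, n = 4). Part of npp-3, 314 of its 5443 exon bases, overlaps K12D12.4 on the same strand, which had a mean of 24 counts in fasted libraries.

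The Y complex, the outer scaffold ring, was less uniform. Of its 7 tested genes 5 were called higher (npp-2, npp-5, npp-6, npp-15 and npp-18) and 2 under TMM (npp-6 and npp-18). Among all tested genes the shares were 52.9% and 19.6%. Of those called, npp-5, npp-15 and npp-18 passed the low-count filter only through the fasted libraries, where they were high. With no filter they were called higher too (edgeR FDR 6.10e-04, 3.20e-04 and 0.00118). npp-6, the Nup160 gene, rose 8.34-fold, from 1.29, 0.668, 1.93 and 1.97 RPM to 9.52, 16.3, 11.7 and 11.4 RPM (log2 fold change 3.05, SE 0.327, edgeR FDR 1.41e-05). npp-18, the Seh1 gene, had the highest fold change of all pore genes but few reads, with 4, 2, 2 and 0 counts in fed and 21, 34, 47 and 32 in fasted libraries (3.73, SE 0.642, edgeR FDR 3.82e-04). npp-5 (Nup107) and npp-15 (Nup133) rose by 2.93 and 2.71 on total counts, with at most 20 counts in any fed library. Those 20 counts were in fed library 1 for npp-5, which stood at 3.93 without that library.

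The other members of the Y complex did not pass. npp-20, whose product Sec13 also coats vesicles that leave the endoplasmic reticulum, stood at 0.477 to 1.53 RPM among fed and 1.12 to 1.80 in fasted libraries (0.61, SE 0.39, edgeR FDR 0.176) and turned to −0.44 under TMM. npp-23, the Nup43 gene, held 0.379, 0.859, 0.241 and 0.379 RPM among fed and 0.296, 0.672, 0.433 and 0.355 RPM in fasted libraries. Its groups overlapped throughout (−0.08, SE 0.512, edgeR FDR 0.897), and its sign changed when fed library 2 was left out (0.38).

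Genes for both faces of the pore included npp-21 and npp-9, next after npp-18 among pore genes by fold change. npp-21 (WBGene00019940; chromosome II, 7599657 to 7608016) encodes TPR, the long coiled-coil protein of the nuclear basket. It held 0.872, 0.859, 1.69 and 0.758 RPM among fed and 12.8, 12.2, 13.1 and 13.3 RPM in fasted libraries, a 12.3-fold increase (log2 fold change 3.62, SE 0.267, edgeR FDR 1.06e-06, TMM 2.56 with FDR 7.25e-06). Its 4 fasted values had a coefficient of variation of 3.52%, the lowest of the 42 tested members. npp-9 (WBGene00003795; chromosome III, 3400638 to 3404479) encodes the Nup358 protein of the cytoplasmic filaments, which binds Ran. It rose 8.96-fold, from 2.20, 2.48, 1.53 and 2.28 RPM to 17.3, 20.2, 16.7 and 21.8 RPM (3.16, SE 0.205, edgeR FDR 4.44e-07, TMM 2.08 with FDR 1.15e-05).

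Their neighbours in the basket and on the cytoplasmic side followed at smaller size. npp-16, the Nup50 gene of the basket and the pore gene with the most reads, went from 8.77 ± 1.06 to 33.2 ± 8.68 RPM (SD, n = 4), and its log2 fold change was 1.92 (SE 0.201, FDR 1.18e-05 by edgeR). It was highest in fasted library 2, at 46.1 RPM against 27.7 to 31 in the others. npp-7 (Nup153) rose by 1.44 (SE 0.241, edgeR FDR 3.12e-04) and was not called under TMM (0.36). On the cytoplasmic side npp-24 (Nup88) rose by 2.18 (SE 0.281, edgeR FDR 5.08e-05). npp-14 (Nup214) held 1.67, 1.53, 3.86 and 2.65 RPM among fed and 6.63, 8.06, 3.20 and 4.79 RPM in fasted libraries, overlapped between groups and just missed the threshold (1.22, SE 0.362, edgeR FDR 0.0104). Leaving out fed library 3 or fasted library 3 brought npp-14 under the threshold, at an FDR of 0.00541 and 0.00509.

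The 3 central channel FG genes were called higher by total counts (52.9% of all tested genes) and none was called under TMM (19.6%). Their log2 fold changes under TMM stayed between 0.68 and 1.32. npp-11, the Nup62 gene, held 1.21, 1.34, 0.483 and 1.21 RPM among fed and 4.01, 3.32, 3.43 and 3.69 RPM in fasted libraries (1.77, SE 0.313, edgeR FDR 4.66e-04). npp-4 (Nup58) rose by 2.17 (SE 0.309, edgeR FDR 1.03e-04). npp-1, the Nup54 gene, rose by 2.40 (SE 0.533, edgeR FDR 0.00196), and its fasted values were 2.23, 8.14, 2.0 and 1.98 RPM. The single high value was again that of fasted library 2, and without it npp-1 was still called, at 1.62 (FDR 0.00279).

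npp-10 encodes a precursor that is cleaved into Nup98 and Nup96, so that its counts cannot be split between the channel and the Y complex. It rose from 7.94 ± 1.08 to 20.4 ± 2.84 RPM (SD, n = 4), with 1.36 as its log2 fold change (SE 0.172, FDR 4.53e-05 by edgeR), close to the median of all genes, and was not called under TMM (0.29, FDR 0.181). Of the membrane nucleoporins, npp-12 (gp210) held 1.78, 1.53, 1.69 and 0.910 RPM among fed and 8.28, 10.8, 4.33 and 5.38 RPM in fasted libraries (2.28, SE 0.335, edgeR FDR 1.27e-04). All fasted values of npp-12 were higher, and it was called under TMM (1.2, FDR 0.00779) but not there without fasted library 2 (FDR 0.0233). npp-22 (NDC1) was uneven among fasted libraries, at 0.854, 2.41, 0.200 and 1.06 RPM, and was not called (1.87, SE 0.678, edgeR FDR 0.0267). The value of npp-22 was 1.21 without fasted library 2 (FDR 0.117), and it was called without fasted library 3 (2.23, FDR 0.00490).

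npp-27 was the one pore gene called lower under TMM. It held 1.37, 1.19, 1.61 and 1.59 RPM among fed and 1.41, 1.5, 1.1 and 0.798 RPM in fasted libraries. By total counts the groups overlapped (−0.26, SE 0.312, edgeR FDR 0.449), and under TMM all fasted libraries lay below the fed ones (−1.33, SE 0.296, edgeR FDR 0.00291). With a replicate block and TMM it was not called (−1.36, FDR 0.0116). The 2 pore genes that were not tested were npp-25, with 2 counts in 1 fed and 6 in 1 fasted library and none elsewhere, and npp-26, with 0 counts in all 8 libraries. A count of 0 allows up to 0.143 RPM in the shallowest library.

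**Figure D3:**
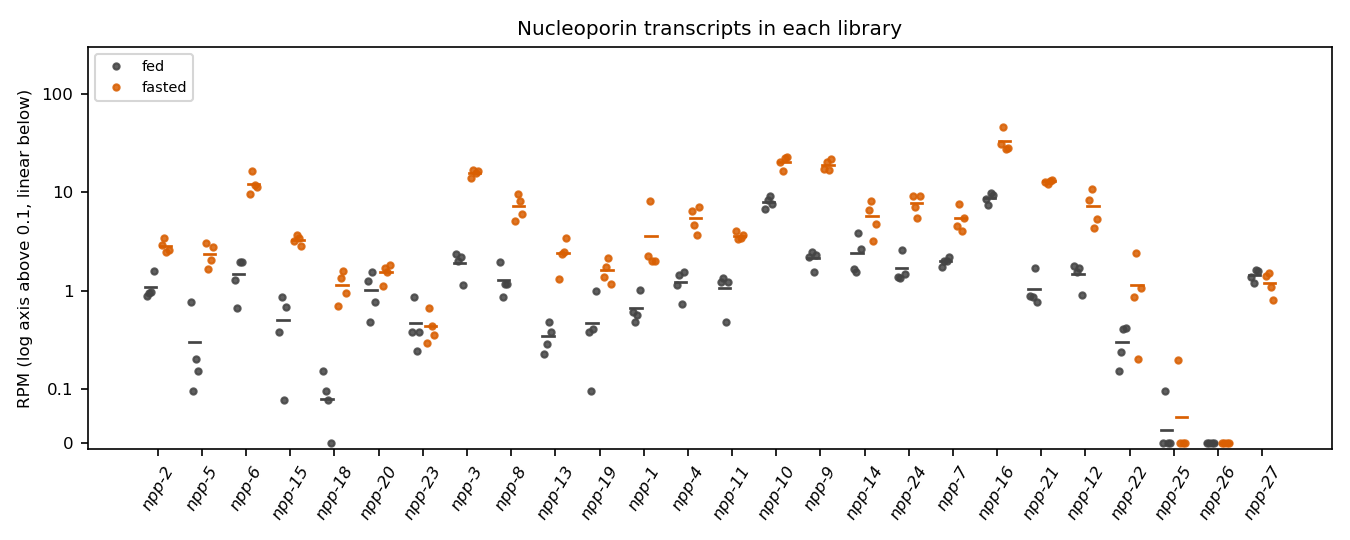
RPM of the 26 pore genes in each fed (grey) and fasted (orange) library, ordered by place in the pore (Y complex, inner ring, central channel, Nup98-Nup96, cytoplasmic side, basket, membrane, other), on an axis that is logarithmic above 0.1 and linear below, with lines at the group means. npp-3, npp-6, npp-9 and npp-21 show a wide gap between groups, and npp-20, npp-23 and npp-27 overlap.

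Without overlap between groups, and higher in fasted libraries, were 33 of the 42 tested members by total counts and 21 under TMM, where 58.5% and 27.1% of all tested genes were. Under TMM 2 members lay wholly lower, beside 25.2% of all genes. These separations come from the same libraries as the calls and add no evidence to them.

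To compare members in a way that does not depend on library scaling, 5 ratios of a pair of transcripts were taken within each library and tested by exact two-sided permutation over the 70 relabellings of 4 against 4 libraries, which can give no p below 0.0286. The log2 ratio of lmn-1 to ran-1 was 1.87, 1.06, 1.47 and 2.24 in fed and −0.15, −0.01, −0.66 and −0.13 in fasted libraries. The lamin transcript thus had more counts than the Ran transcript in all fed libraries and fewer in all fasted ones (63.5% to 99.3% of the Ran counts), a difference of −1.90 (exact permutation p = 0.0286, 0.0714 after Benjamini-Hochberg adjustment over the 5 ratios). The log2 ratio of ran-3 to ran-2 (exchange factor to activating protein) was −3.63, −4.76, −3.90 and −4.25 in fed and −2.81, −2.87, −3.34 and −3.14 in fasted libraries, higher in 4 of 4 fasted libraries by 1.1 (exact permutation p = 0.0286, adjusted 0.0714).

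The other ratios did not separate the groups. For xpo-1 to imb-1 the difference was 0.48 (exact permutation p = 0.257, adjusted 0.429). For ima-2 to ima-3 it was −0.25 (exact permutation p = 0.886, adjusted 1.0), with fed values from −5.79 to −3.75 and fasted values from −7.23 to −2.71. For lem-2 to emr-1, which rests on a handful of counts, it was −0.17 (exact permutation p = 1.0). None of the 5 passed 0.05 after adjustment, and a ratio shows unequal change without saying which transcript moved.

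**Figure D4:**
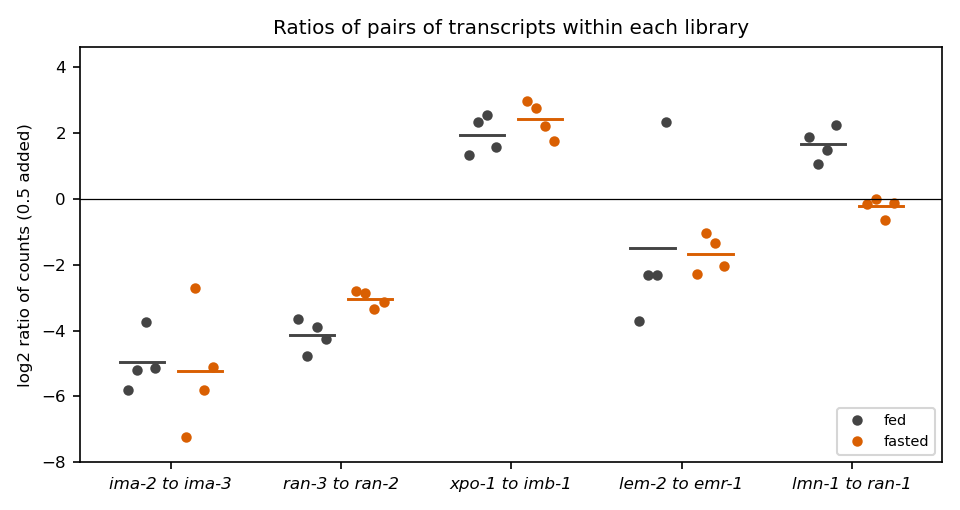
Log2 ratio of the counts of a pair of transcripts within each fed (grey) and fasted (orange) library, with 0.5 added to each count and lines at the group means. lmn-1 to ran-1 and ran-3 to ran-2 show no overlap between groups, while the other 3 pairs overlap.

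Levels of different genes were compared per exon length, as RPKM (RPM per kilobase of exon). In fed intestines ran-2 was highest at 6.90 ± 0.471 RPKM, followed by npp-16 at 5.17 ± 0.625, lmn-1 at 4.13 ± 0.865 and baf-1 at 2.58 ± 0.988 (SD, n = 4). The ranges of mean ± 1 SD of ran-2 and npp-16 did not overlap, while those of npp-16 and lmn-1, and of lmn-1 and baf-1, did. In fasted intestines the first place went to imb-3 at 30.6 ± 5.56 RPKM, which had been at 1.89 ± 0.323 in the fed state. npp-16 (19.6 ± 5.11), ran-1 (15.2 ± 1.98), ima-3 (11.9 ± 1.75), ran-2 (8.97 ± 0.746) and lmn-1 (7.07 ± 1.54) followed (SD, n = 4). Ranges of mean ± 1 SD did not overlap for imb-3 and npp-16 or for ima-3 and ran-2. Those of the other neighbours in this order overlapped.

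**Figure D5:**
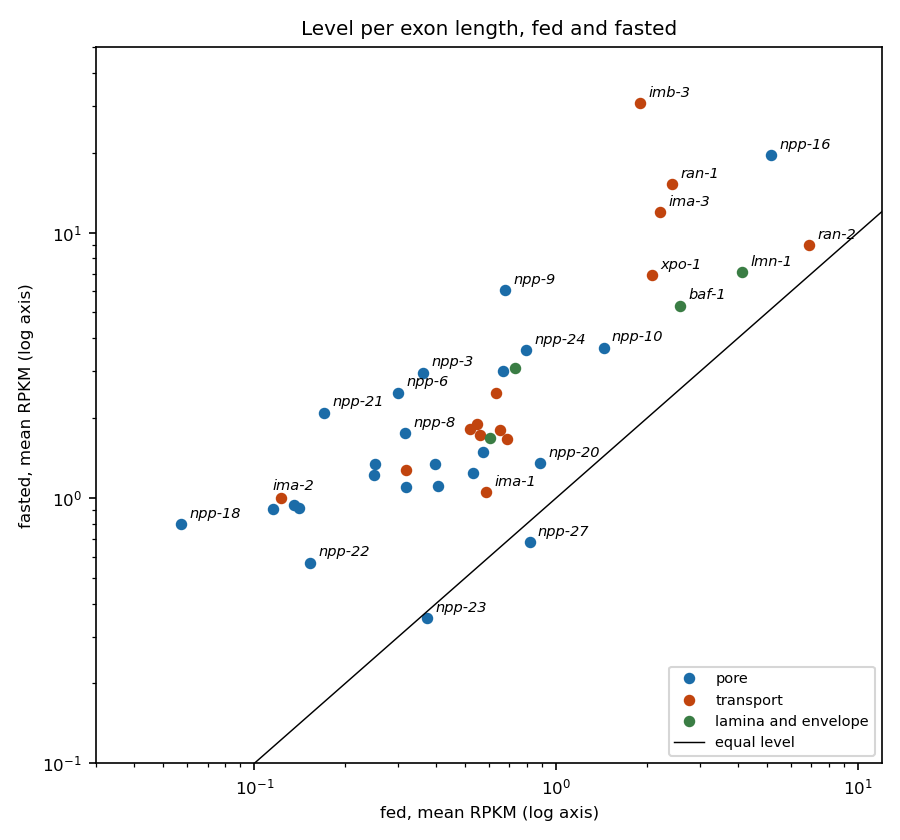
Mean RPKM of the 42 tested genes in fed (horizontal) and fasted (vertical) intestines, both on log axes, with a line at equal level and labels on part of the points. imb-3 lies at 1.89 and 30.6 RPKM, ran-2 at 6.90 and 8.97 RPKM, and npp-27 and npp-23 lie below the line.

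The order of members per length was partly kept (Spearman rho 0.75 between fed and fasted means over 42 genes of the same libraries, given as a description). Exon length and fold change had a rho of 0.24 over the 42 tested members and of 0.37 over the 24 pore genes among them. Over all tested genes it was 0.03, again as a description. Members varied more among fed libraries, with a median coefficient of variation of 35.8%, than among fasted ones (23.9%), as did all tested genes (29.3% and 22.9%).

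Among fasted libraries the members did not share one order. Of the 42 tested members, 7, 19, 3 and 13 had their highest value in fasted libraries 1, 2, 3 and 4, or 16.7%, 45.2%, 7.14% and 31%. For all tested genes the shares were 27%, 30.8%, 13% and 29.3%. Of the 19 that peaked in fasted library 2, 13 were among the 24 tested pore genes and 6 among the 14 transport genes. That library was the richest in germline markers. Without that library, 30 of the 31 calls by total counts remained, and under TMM 13 of the 16 remained. The others kept their direction, at 0.93 for npp-12, 2.62 for npp-18 and 0.59 for xpo-1, with an FDR of 0.0144 to 0.0263. Without fasted libraries 1 and 4, the richest in muscle and neuron markers, 27 of the 31 remained. The others missed the threshold at log2 fold changes of 0.56 (lmn-1), 1.41 (npp-2), 2.57 (npp-5) and 1.66 (ran-5).

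Other genes of the envelope and of mRNA export gave a mixed picture. Of 12 tested envelope genes 5 were called higher and 0 lower by total counts (52.9% and 9.97% of all genes), with a median log2 fold change of 0.42, or −0.81 relative to all genes. Under TMM 4 were higher and 6 lower (19.6% and 21.5% of all genes). Those that rose included mel-28 (2.47, edgeR FDR 1.74e-05), which encodes ELYS, the factor that seeds pores on chromatin, vrk-1 (2.88), the kinase that releases BAF from DNA, samp-1 (2.43) and the KASH protein gene unc-83 (1.78). Of these, vrk-1 had 8, 12, 8 and 4 counts in fed libraries and passed the low-count filter only through the fasted ones. lpin-1, which encodes the phosphatidate phosphatase lipin, was far more abundant (72.0 ± 6.26 RPM fed, 86.3 ± 14.8 RPM fasted, SD, n = 4) and was not called (0.26), and was called lower under TMM (−0.81). The LEM-domain gene lem-3 (−0.26) and the phosphatase gene cnep-1 (−0.04) behaved in the same way. cec-4, whose product tethers methylated chromatin to the envelope, had 0 counts in all fed and 17, 2, 10 and 18 in fasted libraries, and was not tested.

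Of 11 tested mRNA export genes 7 were called higher and 0 lower by total counts (52.9% and 9.97% of all genes). Their median was 1.71, or 0.48 above all genes. Under TMM 2 were higher and 1 lower (19.6% and 21.5% of all genes). nxt-1, a partner of the export receptor, rose from 0.774 ± 0.460 to 7.07 ± 1.97 RPM (3.17 on the log2 scale), and the helicase gene hel-1 from 2.52 ± 0.376 to 11.1 ± 1.99 RPM (2.14, SD over 4 libraries for both genes). In fed libraries nxt-1 had 37, 7, 14 and 21 counts, and the 7 counts lay below the filter level. nxf-1, the mRNA export receptor itself, stood at 2.46 ± 0.928 RPM among fed and 1.5 ± 0.710 in fasted libraries (−0.71, edgeR FDR 0.130) and was called lower under TMM (−1.77). None of the 23 tested envelope and export genes was lower by total counts at an unadjusted p under 0.05. The DESeq2 Wald test called 7 of them higher and 7 lower, beside 23.7% and 23.8% of all genes.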

How the data were processed

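RNA of dissected intestines was amplified as cDNA with a SMART-Seq mRNA kit and sequenced. The deposited values are counts that the authors made by trimming with Trimmomatic, aligning to ce10 with QuasR, keeping unique reads and counting those in the orientation of WormBase exons. The libraries are not stated to keep the strand, so reads of overlapping genes may be shared. The deposited table also holds another value, the exon length in bases, used here for RPKM. Among counts from 1 to 10, 69.2% were even, so single counts may not be independent, and floors cover counting error only. PCR duplicates cannot be recognised.

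Columns were matched to libraries by title (0 unmatched). The labels call the replicates biological, and no pair of libraries of a group agreed within sampling noise (chi-square per gene at least 15.1). Symbols were found for 19182 of 20392 identifiers. Positions and overlaps are from Ensembl release 115 (WBcel235), and no coordinates were converted from ce10. No sequences were used here, and npp-17 was not matched under that symbol.

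Low counts were removed by filterByExpr (at least 10 counts, total of 15) and the remaining genes tested with edgeR 4.0.16 (quasi-likelihood) in R 4.3.3 over the whole table, with group as the only term. Library size was the total count, by which the study also scaled its values. SE was taken as the log2 fold change divided by the square root of F. The script was tested on simulated data. Alternatives were TMM, DESeq2 1.42.0 and its size factors, library size without vitellogenins, other filters, a replicate block, and fits without single libraries or without fasted libraries 1 and 4. All transport and envelope genes are named, and of the pore genes the 4 with the highest and the 4 with the lowest fold change and 5 fixed examples. Further pore genes, and those singled out among envelope and export genes, were named after their values were seen. Members and lists were chosen with earlier results of these data known.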

Additional observations from a re-analysis of the deposited data

Results flagged for a closer look

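In 94 groups of 4 values (the RPM of each tested member in fed or in fasted libraries, and the 5 ratios), 9 held a value far from the other 3 by Dixon's test, where chance gives about 1 in 20. In fasted library 2 these were ima-2 at 5.73 RPM and npp-1 at 8.14 RPM. Fed library 3 stood apart for ima-2 (0.563 RPM), npp-21 (1.69 RPM) and npp-24 (2.57 RPM) with a high value and for npp-11 (0.483 RPM) with a low one. Fed library 4 was high for npp-2 (1.59 RPM) and xpo-2 (1.67 RPM), and fed library 1 for npp-5 (0.759 RPM). Fasted library 2 also had the highest sum of germline markers, 487 RPM. The calls of npp-1, npp-2, npp-5, npp-11, npp-21, npp-24 and xpo-2 each stayed higher by total counts when any single library was left out.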

How the results depend on the processing

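The scaling changed the counts of calls, while 22 of 42 members kept their direction and side of the threshold with TMM and 25 with the DESeq2 test. Members called higher were 31 by total counts, 16 with TMM, 15 with DESeq2 size factors in edgeR, 19 by the DESeq2 Wald test, 16 with a replicate block and TMM, and 13 with TMM without fasted library 2, an alternative chosen after seeing the data. Members called lower were 0 by total counts and 2, 2, 2, 1 and 2 in those fits. Leaving out any 1 library gave 30 to 34 higher and 0 lower. All genes called higher went from 3901 to 1448, 1445, 1748 and 1316 with TMM, DESeq2 size factors, the DESeq2 test and the replicate block with TMM, and genes called lower from 736 to 1585, 1601, 1754 and 1502 (3521 to 3908 and 636 to 724 with 1 library left out). Other envelope and export genes called higher went from 12 to 6, 6, 7 and 5 and those called lower from 0 to 7 in each of these fits (10 to 11 and 0 with 1 library left out).

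With TMM, DESeq2 size factors, the DESeq2 test and the replicate block with TMM, the log2 fold change turned negative for baf-1 (−0.027, −0.032, −0.032 and −0.052), ima-1 (−0.23, −0.24, −0.24 and −0.19), lmn-1 (−0.30, −0.31, −0.31 and −0.30), npp-20 (−0.44, −0.45, −0.46 and −0.38) and ran-2 (−0.70, −0.71, −0.71 and −0.70). With TMM and without fasted library 2 it was −0.48 for ima-1, −0.31 for lmn-1, −0.072 for npp-14, −0.49 for npp-20 and −0.72 for ran-2. npp-23 (−0.08) ranged from −0.35 to 0.38 with 1 library left out and was 0.26 without fasted libraries 1 and 4. Without vitellogenins in the library size lmn-1 lost its call (FDR 0.0423). With 1 library left out, the ratio differences ranged from −1.08 to 0.42 for ima-2 to ima-3, 0.89 to 1.26 for ran-3 to ran-2, 0.27 to 0.70 for xpo-1 to imb-1, −0.90 to 1.1 for lem-2 to emr-1 and −2.10 to −1.70 for lmn-1 to ran-1. That of ran-3 to ran-2 had an exact permutation p over 0.05 without fasted library 1, 2 or 4. The cause of these shifts was not tested.

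By the study's methods, part of the collected adults was dissected as fed and the remainder was fasted. Same-numbered libraries may therefore share a population. They deviated together weakly (r 0.0437, 0.0865, 0.0674 and 0.163), and only number 4 correlated best with its own number. Such correlations cannot decide the pairing, so the main fit without pairs is given beside fits with a replicate block. The replicate block gave 32 higher calls against 31, adding baf-1 (1.01, FDR 0.00998). With the replicate block and TMM, npp-18 (FDR 0.0176), xpo-1 (0.0108) and npp-27 (0.0116) lost the calls they had with TMM, and npp-4 (0.00774) and npp-5 (0.00643) gained one. xpo-1 also missed the threshold with DESeq2 size factors (FDR 0.0102).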
